A study of Mus musculus with 4 samples.

Results

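The complement, coagulation and fibrinolysis genes examined here are 42 mouse genes of 3 linked protease systems of blood and tissue, chosen by symbol. Earlier results of these data were known when they were chosen. Host tissue at collagen-coated and at PMB-coated porous polyethylene scaffolds was each compared with tissue at a non-coated scaffold, on 2 two-colour DNA microarrays for each coating. PMB is a copolymer of 2-methacryloyloxyethyl phosphorylcholine and n-butyl methacrylate, used as a bio-inert surface, and collagen served as the bioactive one. Male C57BL/6 mice aged 8 weeks carried the scaffolds subcutaneously on the back for 7 days, and tissue in and close to them was cut out by laser. The methods give n = 1 for the array work, without saying whether the 3 scaffolds shared a mouse, and the non-coated extract was the reference on all 4 arrays. Replicate 1 had the coated scaffold in Cy5, and replicate 2 had it in Cy3, so that the 2 arrays of a coating are a dye swap. They were counted as 1 sample, and no test between scaffolds can be made.

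Every value is a log2 ratio, of coated over non-coated scaffold or of collagen-coated minus PMB-coated. For a coating, ± is the SD of its 2 arrays. For collagen minus PMB it is the SD of 2 differences, 1 per dye orientation, from which a dye offset shared by both coatings drops out. It can thus be far smaller than the SD of either coating, as for Cfi at 0.021, against 0.36 with collagen and 0.38 with PMB. Either SD is technical error only and tells nothing of the spread between animals. The threshold was a mean of 1 or more in size (2-fold) with equal signs on both arrays. Ratios hold no level, so no gene's abundance was set against another's. In such mixed tissue, fewer cells of a type and less RNA per cell cannot be told apart.

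Of the 42 genes, 39 had a probe named for them and 30 had a value on all 4 arrays, among 11842 such genes in the whole series. C1s was found under its present symbol C1s1. C3, C7 and Serpine2 had no probe under their symbol in the annotation used and were not analysed here. Proc and Serpinf2 had a probe but no value on any array, and the other 7, C6, C8g, C5ar1, F5, F8, Serpinc1 and Serpind1, had values on some arrays only. The liver makes most plasma proteins of these systems, and none of 6 hepatocyte genes, albumin among them, had a value on all 4 arrays.

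Complement is a set of plasma proteins and receptors that tags foreign surfaces and cells. C1q with the proteases C1r and C1s starts the classical pathway, C4 and C2 form its C3 convertase, factor B and properdin form and steady that of the alternative pathway, and C5 (the mouse gene is Hc) opens the terminal pathway. Clotting is started by tissue factor with factor VII and runs through factor X to thrombin, and it is held back by tissue factor pathway inhibitor, antithrombin, heparin cofactor II and the thrombomodulin and protein C system. The plasminogen activators tPA (Plat) and uPA (Plau) make plasmin, which dissolves fibrin. At implanted materials these proteins meet the surface among the first, and macrophages, fibroblasts, endothelial cells and fat cells are known to make many of them locally.

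Promoter sequence is shown for the members that stood at the ends of the comparison between the coatings and were found in the RefSeq promoter table, Hc and Cd55 at the collagen-low end and Tfpi2 at the collagen-high end. The window runs from 250 bases before to 50 bases after the start site in GRCm38.p6, on the strand of the gene. Capitals mark matches, on either strand, to 7 motifs searched, which were the TATA box (TATAAA), the GC box (GGGCGG), the CCAAT box, the GAS element (TTCNNNGAA), the AP-1 motif (TGANTCA), an interferon-stimulated response element read as GAAA and GAAA around 2 free bases, and an NF-kB motif read as GGGA and CC around 4 free bases.
Hc, chr2:35061363-35061662, minus strand: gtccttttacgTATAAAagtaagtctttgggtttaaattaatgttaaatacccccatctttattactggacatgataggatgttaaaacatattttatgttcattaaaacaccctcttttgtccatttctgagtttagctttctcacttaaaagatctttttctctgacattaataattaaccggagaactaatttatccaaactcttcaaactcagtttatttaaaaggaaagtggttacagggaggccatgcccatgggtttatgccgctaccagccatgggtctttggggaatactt
Cd55, chr1:130462695-130462994, minus strand: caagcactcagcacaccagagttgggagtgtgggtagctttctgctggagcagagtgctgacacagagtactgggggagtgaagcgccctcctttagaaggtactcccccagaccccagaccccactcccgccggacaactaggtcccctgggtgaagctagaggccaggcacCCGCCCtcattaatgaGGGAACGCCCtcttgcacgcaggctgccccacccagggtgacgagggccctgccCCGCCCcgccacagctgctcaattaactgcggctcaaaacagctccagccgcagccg
Tfpi2, chr6:3968326-3968625, minus strand: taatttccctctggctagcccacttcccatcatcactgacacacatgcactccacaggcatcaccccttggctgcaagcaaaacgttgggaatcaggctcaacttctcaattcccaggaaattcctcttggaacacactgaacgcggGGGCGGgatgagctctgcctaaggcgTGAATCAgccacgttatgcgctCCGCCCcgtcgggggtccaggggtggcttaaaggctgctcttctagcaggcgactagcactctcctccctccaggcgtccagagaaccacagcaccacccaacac
The table lists 3 start sites for Tfpi2, of which the last along the gene's strand is shown. In the Hc window a TATA box match began at -239 from the start site and no other motif matched. The Cd55 window held GC box matches at -77 and -7 and an NF-kB match at -61, and the Tfpi2 window GC box matches at -103 and -55 and an AP-1 match at -77. Of all 32841 promoters of this length in the table, 13.6% held the TATA box, 35.7% the GC box, 37.4% CCAAT, 20.7% the NF-kB motif, 8.30% GAS, 7.81% the AP-1 motif and 3.44% the interferon element. A match is a stretch of letters and no measured site, and the arrays did not measure binding.

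Against the non-coated scaffold, at most 1 of these genes reached 2-fold in either direction with each coating. With the collagen coating, Cd59a alone of the 30 genes (3.33%) passed the threshold downwards and none upwards, against 3.38% and 2.21% of all genes. With the PMB coating, Plau alone was at least 2-fold lower and Hc alone higher (3.33% each), against 1.40% and 0.616% of all genes. The median of the 30 genes was -0.22 with collagen and 0.021 with PMB, beside 0.036 and 0.022 over all genes. By system, the 17 complement genes had a median of -0.37 with collagen and 0.19 with PMB, the 9 coagulation genes 0.054 and -0.20, and the 4 genes of plasminogen activation -0.33 and -0.12.

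**Figure D1:**
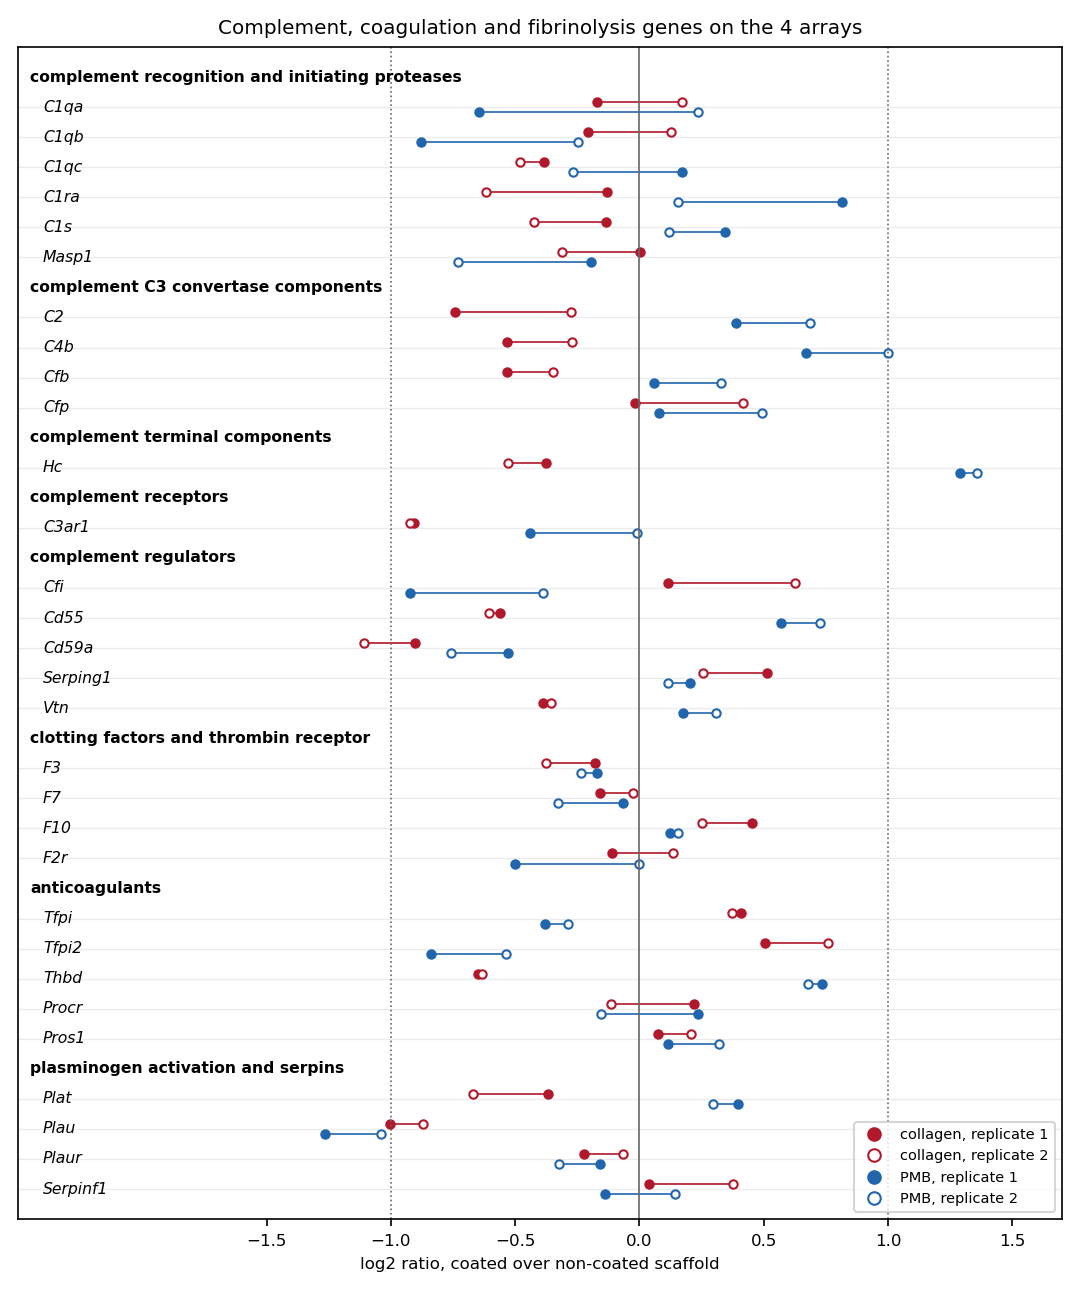
Log2 ratio of coated over non-coated scaffold (x axis) for each of the 30 genes measured on all 4 arrays, grouped by role. Red circles are collagen and blue circles PMB, filled for replicate 1 and open for replicate 2, and dotted lines mark 2-fold. Hc lies right of the upper 2-fold line on both PMB arrays, at 1.29 and 1.36, and left of 0 on both collagen arrays.

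More of them differed between the coatings. Hc, Thbd, C4b, Cd55 and C2 were lower by 2-fold or more on the collagen side, which is 5 of 30 genes (16.7%) against 3.67% of all genes. Tfpi2 and Cfi were higher by as much, which is 2 of 30 (6.67%) against 2.74%. Of these genes, Hc, Thbd, C4b, Tfpi2 and Cfi rest on 1 probe each. The median of the 17 complement genes was -0.51 for collagen minus PMB, that of the 9 coagulation genes 0.10 and that of the 4 genes of plasminogen activation 0.15, beside 0.0012 over all genes. The coagulation median lost its sign without replicate 2, at -0.006. Further genes of the same systems, described below, did not share these medians. Theirs were 0.014 for 15 complement genes, -0.29 for 9 coagulation genes and -0.30 for 7 fibrinolysis genes, so the member medians do not describe the systems as wholes. At a threshold of 1.5-fold, 8 of the 17 complement genes were lower with collagen than with PMB and 1 was higher, where 10.2% of all genes were lower and 9.35% higher. At the same threshold, 1 of the 30 members was higher and 4 were lower with collagen over non-coated (6.40% and 7.60% of all genes), and 4 were higher and 4 lower with PMB over non-coated (4.32% and 4.48%). By sign alone, 7 members were above 0 and 17 below 0 on both collagen arrays (39.9% and 32.0% of all genes), 14 and 12 on both PMB arrays (38.8% and 33.6%), and 10 and 16 in both differences (42.0% and 40.8%). Both coatings were read against the same non-coated extract, so the single ratios to it are not independent of each other.

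**Figure D2:**
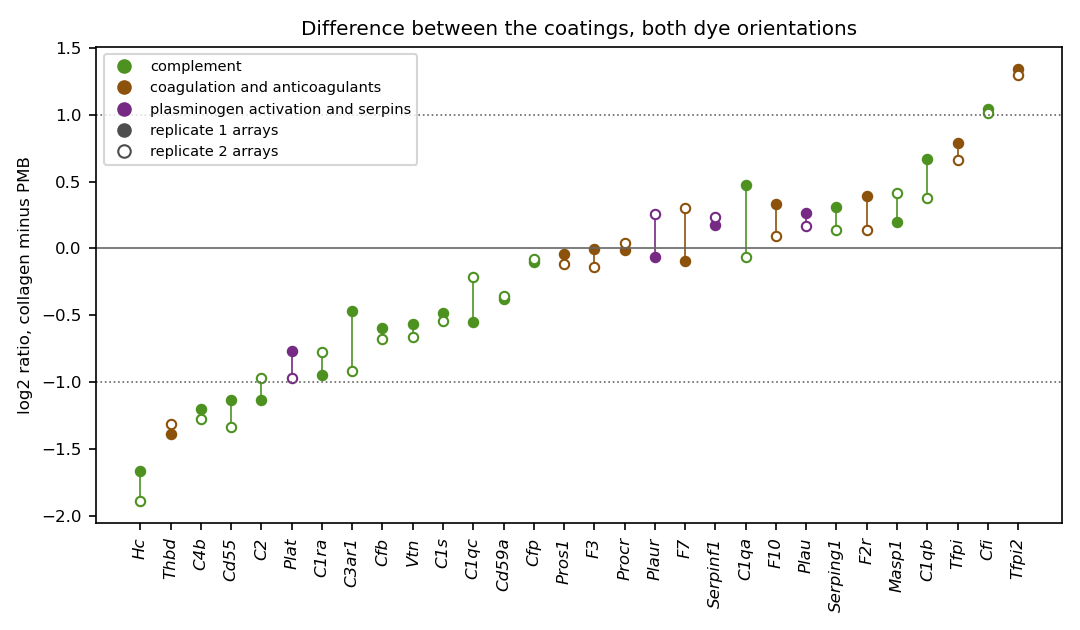
Collagen minus PMB log2 ratio (y axis) for the 30 genes, ordered by their mean. Filled circles are the replicate 1 arrays and open circles the replicate 2 arrays, colours give the system and dotted lines mark 2-fold. The genes run from Hc at -1.78 to Tfpi2 at 1.32, with Cfi at 1.03.

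Of the 6 genes that start complement, none reached 2-fold on the values as deposited. C1qa was at -0.17 and 0.17 on the collagen arrays and at -0.64 and 0.23 on the PMB arrays, so its sign depended on the dye. C1qb was at -0.21 and 0.13 with collagen, against -0.88 and -0.25 with PMB. C1qc was at -0.38 and -0.48 with collagen, against 0.17 and -0.27 with PMB. The 3 genes lie next to each other on chromosome 4 and their products form 1 protein, yet their collagen minus PMB values were 0.20 ± 0.38, 0.52 ± 0.21 and -0.38 ± 0.24. Macrophages are known as a main source of C1q in tissue, and the 8 measured macrophage markers had a median of -0.23 with collagen and -0.09 with PMB.

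The proteases bound to C1q, C1ra and C1s, were below 0 on both collagen arrays and above 0 on both PMB arrays. C1ra was at -0.13 and -0.62 with collagen, against 0.81 and 0.16 with PMB, a difference of -0.86 ± 0.12. C1s, its neighbour on chromosome 6, was at -0.14 and -0.43 with collagen, against 0.34 and 0.12 with PMB, a difference of -0.51 ± 0.045. C1rb, a close copy of C1ra, stood the other way round at 0.37 ± 0.16 with collagen and -0.32 ± 0.075 with PMB. How far the probes of the copies keep them apart was not examined. Masp1, a protease of the lectin pathway, was at 0.004 and -0.31 with collagen, against -0.19 and -0.73 with PMB.

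Among the C3 convertase genes, C4b and C2 of the classical pathway were 2.36-fold and 2.07-fold lower with collagen than with PMB. C4b was at -0.53 and -0.27 on the collagen arrays and at 0.67 and 1.00 on the PMB arrays, which did not overlap, and its difference was -1.24 ± 0.052. C4b has a close copy, C4a, without a value on all 4 arrays, and how far the C4b probe keeps them apart was not examined. C2 was at -0.74 and -0.28 with collagen, against 0.39 and 0.69 with PMB, and its difference was -1.05 ± 0.12. Without replicate 1 the C2 difference was -0.96, short of 2-fold, and without replicate 1 C4b reached 2-fold with PMB, at 1.00. The 2 probes of C2 were close, at -0.55 and -0.47 with collagen and 0.57 and 0.50 with PMB. For factor B (Cfb), the protease of the alternative convertase, the collagen arrays gave -0.53 and -0.35 and the PMB arrays 0.058 and 0.33, a difference of -0.63 ± 0.060. Cfb and C2 are neighbours on chromosome 17, with 5 coding genes between Cfb and C4b. All 3 lay below 0 on both collagen arrays and above 0 on both PMB arrays. These signs were not particular to them, as Hc, Thbd, Cd55, Vtn, Plat, C1ra and C1s had the same. How many of all genes have them was not counted. Properdin (Cfp), which steadies the alternative convertase and is made by leukocytes, was on the other hand near equal with both coatings, at 0.20 ± 0.31 with collagen and 0.29 ± 0.29 with PMB.

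The largest mean in size among the 30 genes belonged to Hc, which encodes C5, for PMB over non-coated and for collagen minus PMB. Hc was at -0.38 and -0.53 on the collagen arrays and at 1.29 and 1.36 on the PMB arrays. It was thus higher at the PMB-coated than at the non-coated scaffold, with a mean of 1.32 ± 0.049, and 3.42-fold lower with collagen than with PMB. It rests on 1 probe. The other terminal components had values on the collagen arrays and on PMB replicate 1 only, where C6 was at -0.059 ± 0.50 with collagen and 0.64 on the PMB array, and C8g at -0.52 ± 0.037 and 0.24. The receptor for the C3a fragment, C3ar1, was at -0.91 and -0.92 on the collagen arrays and at -0.44 and -0.009 on the PMB arrays. Its 2 probes gave -1.15 and -0.67 with collagen, so that the choice of probe decided whether it reached 2-fold. The C5a receptor C5ar1, a leukocyte gene, was at 0.077 and 0.14 with collagen and at -0.55 on the 1 PMB array with a value.

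The regulators of complement did not move as a group. Cd55, the membrane protein that takes C3 convertases apart, was at -0.56 and -0.60 on the collagen arrays and at 0.57 and 0.72 on the PMB arrays, a difference of -1.23 ± 0.14. All 3 of its probes with 4 values had a mean below 0 for collagen and one above 0 for PMB, and the probe with the smallest dye difference gave -0.97. Cd59a, which blocks the membrane attack complex, was at -0.90 and -1.11 with collagen, against -0.53 and -0.76 with PMB. Its collagen mean of -1.01 ± 0.15 was 2.01-fold lower and only just past the threshold, and replicate 1 alone gave -0.90. Cd59b, a close copy, was at -0.48 ± 0.12 with collagen and -0.21 ± 0.21 with PMB.

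Factor I (Cfi), the protease that cuts C3b and C4b, ran against Cd55. It was at 0.12 and 0.62 on the collagen arrays and at -0.92 and -0.39 on the PMB arrays, and with a difference of 1.03 ± 0.021 it was 2.04-fold higher with collagen than with PMB. The C1 inhibitor Serping1 was above 0 on all 4 arrays, at 0.51 and 0.26 with collagen and 0.20 and 0.11 with PMB. Vitronectin (Vtn), an inhibitor of the terminal complex and an adhesive plasma protein, was at -0.39 and -0.36 with collagen, against 0.18 and 0.31 with PMB, a difference of -0.61 ± 0.069.

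Markers of other cell types in the dissected tissue differed between the coatings too. For collagen minus PMB, all 6 measured adipocyte genes were below 0, 5 of them at least 2-fold, with a median of -1.87 and a range of -2.80 to -0.85. The 8 fibroblast markers had a median of -0.36, with 1 at least 2-fold lower, and the 8 macrophage markers one of -0.25, with none past 2-fold. Neutrophil markers ran the other way, with 6 of 7 at least 2-fold higher and a median of 1.75, and the 8 skeletal muscle genes had a median of -1.22. Medians above 0 were also found for 4 T cell genes (1.91), 4 epidermis genes (1.15), 2 erythroid genes (0.68) and 6 smooth muscle and pericyte genes (0.49). Below 0 were 2 Schwann cell genes (-2.49), 2 lymphatic endothelial genes (-0.95) and 4 mast cell genes (-0.75). The 3 measured platelet genes, of a cell that carries clotting proteins, were all below 0, with a median of -0.94 and a range of -1.20 to -0.35. Against the non-coated scaffold the 6 adipocyte genes were all at least 2-fold higher with PMB, at a median of 1.24, and stood at a median of -0.60 with collagen. All 8 skeletal muscle genes were at least 2-fold lower than non-coated with both coatings, at medians of -3.08 (collagen) and -1.93 (PMB). The part of these cells in the values of the members was not tested.

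None of the 4 clotting factor and thrombin receptor members measured on all 4 arrays reached 2-fold. Tissue factor (F3), the trigger of clotting, was at -0.18 and -0.38 on the collagen arrays and at -0.17 and -0.24 on the PMB arrays, with a difference of -0.073 ± 0.094 between the coatings, which is within its technical error. Its partner F7 was at -0.093 ± 0.093 with collagen and -0.20 ± 0.19 with PMB. F10, the neighbour of F7 on chromosome 8, was at 0.35 ± 0.14 and 0.14 ± 0.021, and the thrombin receptor F2r at 0.013 ± 0.17 and -0.25 ± 0.35. The cofactor F5 was at 0.64 and 0.61 on the collagen arrays and at -0.41 on PMB replicate 1, and F8 at 0.24 and 0.094 on the collagen arrays, with no value on the PMB arrays.

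Among the 9 coagulation members measured on all 4 arrays, the anticoagulants Thbd and Tfpi2 had the largest differences between the coatings, in opposite directions. Thrombomodulin (Thbd), the endothelial receptor that turns thrombin to the activation of protein C, was at -0.65 and -0.63 on the collagen arrays and at 0.74 and 0.68 on the PMB arrays. The difference of -1.35 ± 0.052 made it 2.55-fold lower with collagen than with PMB. All 8 measured blood endothelial markers were above 0 on both arrays of both coatings, with a median of 0.88 with collagen and 0.28 with PMB. Of the collagen minus PMB values of these markers, 7 were above 0 and Tek was at -0.49, with a median of 0.57. Of the 2 measured lymphatic endothelial markers, Lyve1 was at -2.22 and Pdpn at 0.32. The part of endothelial cells in the value of Thbd was not tested. The endothelial protein C receptor (Procr) changed sign with the dye for both coatings, with a difference of 0.013 ± 0.038, and protein S (Pros1), the cofactor of protein C, was at 0.14 ± 0.094 with collagen and 0.22 ± 0.14 with PMB.

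Both tissue factor pathway inhibitors stood on the collagen side. Tfpi2, a matrix-bound inhibitor of serine proteases including plasmin, was at 0.50 and 0.76 on the collagen arrays and at -0.84 and -0.54 on the PMB arrays. With a difference of 1.32 ± 0.034 it was 2.49-fold higher with collagen than with PMB. Tfpi, the inhibitor of tissue factor with factor VII and of factor X, was at 0.41 and 0.37 with collagen, against -0.38 and -0.29 with PMB, a difference of 0.72 ± 0.091. Its probes disagreed, with differences of 1.17, 0.99 and 0.016. Antithrombin (Serpinc1) was at 0.31 on collagen replicate 1 and 0.46 on PMB replicate 1, and heparin cofactor II (Serpind1) at 2.12 on collagen replicate 1, the only array with a value for it, which leaves it with no second dye orientation.

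**Figure D3:**
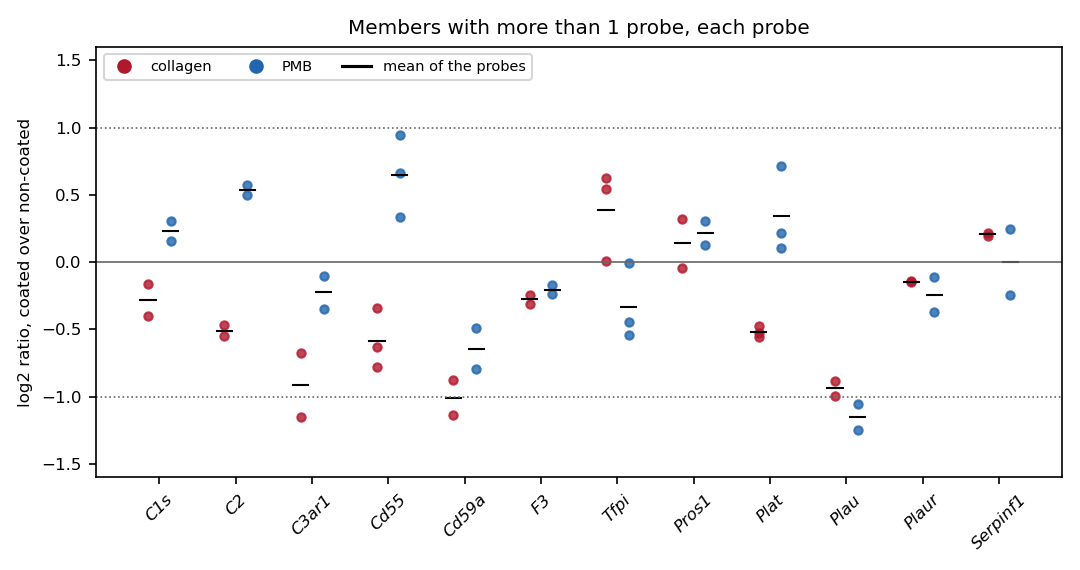
Mean log2 ratio of coated over non-coated scaffold (y axis) for each probe of the members with more than 1 probe measured on all 4 arrays. Red is collagen, blue is PMB, black bars are the means over probes and dotted lines mark 2-fold. The 3 probes of Cd55 keep apart between the coatings, whereas 1 of the 3 probes of Tfpi lies near 0 with both.

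The plasminogen activators differed from each other. Plau, which encodes urokinase and acts at cell surfaces, was below 0 on all 4 arrays, with collagen arrays at -1.0015 and -0.87 and PMB arrays at -1.27 and -1.04. It was 2.22-fold lower at the PMB-coated than at the non-coated scaffold, with a mean of -1.15 ± 0.16, and at -0.94 ± 0.092 with collagen, and both of its probes gave at most -0.88 with either coating. Both values share the non-coated extract, and the coatings differed by 0.22 ± 0.068. The urokinase receptor Plaur was at -0.22 and -0.065 with collagen, against -0.16 and -0.32 with PMB, so the receptor stood closer to 0 than its ligand with either coating. Plat, the activator made by endothelial and other cells that acts on fibrin, was at -0.37 and -0.67 with collagen, against 0.40 and 0.29 with PMB. Its difference of -0.86 ± 0.14 did not reach 2-fold. Its 3 probes gave -0.78, -1.24 and -0.58. Serpinf1, a secreted serpin that lacks protease inhibition and is known as an inhibitor of vessel growth, was at 0.21 ± 0.24 with collagen and 0.0018 ± 0.20 with PMB.

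Other genes of the 3 systems were taken from lists drawn up by role. The further complement genes had a median of -0.17 with collagen, -0.215 with PMB and 0.014 for collagen minus PMB. The complement members were at -0.37, 0.19 and -0.51. Of 15 measured further complement genes, 1 passed 2-fold downwards with collagen (3.38% of all genes did), none upwards with either coating, and none of the 15 differed 2-fold between the coatings. The gene past the threshold was Fcna, a ficolin of macrophages that starts the lectin pathway, at -0.93 and -1.12 on the collagen arrays and -0.23 and -0.22 on the PMB arrays. Clusterin (Clu), a secreted chaperone that also blocks the terminal complex, was near equal with both coatings, at 0.90 ± 0.033 with collagen and 0.89 ± 0.17 with PMB. Of 9 further coagulation genes, 1 passed 2-fold downwards with collagen (3.38% of all genes) and 2 did so for collagen minus PMB (3.67% of all genes). F13a1, the fibrin crosslinking subunit found in macrophages and platelets, was at -1.45 and -1.26 with collagen, against 0.22 and 0.45 with PMB, and Gas6, a relative of protein S, differed by -1.09 ± 0.23. Von Willebrand factor (Vwf), an endothelial product, was at 0.11 ± 0.0092 with collagen and 0.67 ± 0.17 with PMB, a difference of -0.57 ± 0.16. Of the 8 blood endothelial markers, 7 lay on the other side of 0 for collagen minus PMB, and the median of the 8 was 0.57.

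Of 7 further genes of fibrinolysis and protease inhibition, 1 was at least 2-fold higher and 1 lower with collagen, where 2.21% and 3.38% of all genes were. The same genes were past 2-fold for collagen minus PMB, where 2.74% of all genes were higher and 3.67% lower. The acute phase serpin Serpina3n was at 1.47 and 1.16 on the collagen arrays and at -0.043 and -0.26 on the PMB arrays. The broad protease inhibitor A2m was at -1.86 and -2.09 with collagen, against -0.38 and -0.73 with PMB. Serpinb2, an inhibitor of urokinase, was at -0.53 ± 0.027 with collagen and -0.38 ± 0.18 with PMB.

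**Figure D4:**
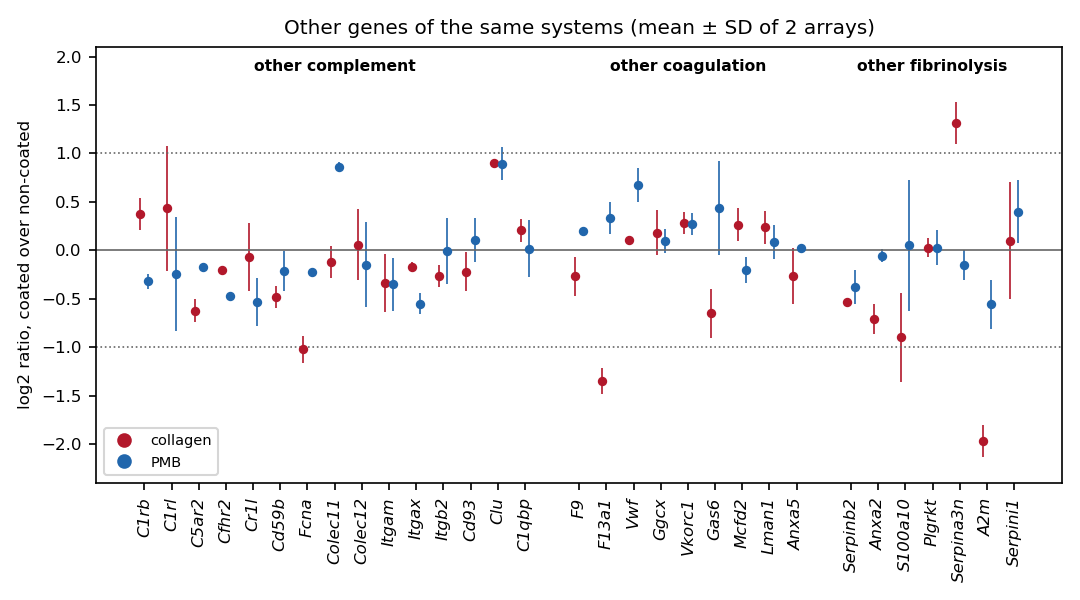
Log2 ratio of coated over non-coated scaffold (y axis) for the further complement, coagulation and fibrinolysis genes with a value on all 4 arrays. Points are means and bars the SD of the 2 arrays, in red for collagen and blue for PMB, with 2-fold marked by dotted lines. F13a1 and A2m lie below the lower line with collagen, at -1.35 and -1.97, and Serpina3n above the upper one.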

How the data were processed

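Labelled aRNA (825 ng per dye) was hybridized to Agilent whole mouse genome arrays. Spot signals were LOWESS-normalized by the authors, and the deposited unit is the log2 of Cy5 over Cy3. The sources used here do not say how scans at 3 gains were merged or why some spots are empty, and without spot intensities the distance from background is unknown. The number of arrays limits the precision.

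As deposited, swapped arrays had a correlation of -0.79 (collagen) and -0.66 (PMB) over 22380 probes, so replicate 2 had not been turned and its sign was reversed. By array, 52.3% to 60.5% of 43377 probes had a value. Of the probes, 33651 had 1 gene symbol in the platform annotation, 56 several and 9670 were not named there. Symbols were updated by gene ID through a RefSeq table. Probes with 4 values were averaged per gene.

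The members and lists were chosen with earlier results of these data known. Every member was named, members past 2-fold with all 4 values. Of the further genes of the 3 systems those past 2-fold were named, and marker lists were given by medians, counts and ranges. Clu, Vwf, C1rb, Cd59b, Serpinb2, Tek, Lyve1 and Pdpn were picked after their values were seen. Alternatives were single arrays, 2 scalings between arrays, 2 ways to combine probes, values on both arrays of 1 coating, and 2 other thresholds. The calling rule was run on simulated data whose effects were absent or clearly past the threshold, so it was not tried close to the threshold. Arrays were scaled with limma 3.58.1 in R 4.3.3, and all else was computed in Python 3.11.15 with numpy 2.4.6 and pandas 2.3.3 and drawn with matplotlib 3.10.9.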

Additional observations from a re-analysis of the deposited data

Results flagged for a closer look

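The genes given here had both collagen arrays on one side of 0 and both PMB arrays on the other, and this difference was not tested. How many of all genes do so was not counted, so whether these members do so more often is unknown. Their collagen minus PMB log2 ratios were below 0 for Hc at -1.78, Thbd at -1.35, C4b at -1.24, Cd55 at -1.23, C2 at -1.05, Plat at -0.86, C1ra at -0.86, Cfb at -0.63, Vtn at -0.61 and C1s at -0.51. They were above 0 for Tfpi2 at 1.32, Cfi at 1.03 and Tfpi at 0.72. The coatings share the non-coated extract, and the methods give n = 1.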

How the results depend on the processing

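No paired analysis was possible because the 2 arrays of a coating are 1 dye-swapped pair of extracts and no test was run. No member past 2-fold changed sign under any alternative run. The coagulation median for collagen minus PMB, 0.10, was -0.006 without replicate 2. A scaling meant to bring the arrays to one spread in fact divided each array by its own median ratio. These medians were near 0, at 0.008 and 0.029 for the 2 collagen arrays and 0.007 and 0.036 for the 2 PMB arrays. The division enlarged the replicate 1 arrays and shrank the replicate 2 arrays, so its values tell nothing of unequal spread. It gave a coagulation median of -0.016 for collagen minus PMB. Under the division, the members at least 2-fold lower numbered 3 with collagen, against 1, and 4 with PMB, against 1. The complement medians were then -0.47 with collagen and -0.64 for collagen minus PMB. The genes that this division brought past 2-fold were C3ar1 (-1.13) and Plau (-1.21) with collagen, C1qb (-1.03), Cfi (-1.11) and Tfpi2 (-1.05) with PMB, and C1ra (-1.23) and Plat (-1.04) for the difference. With 2-fold required on each array, none was lower with collagen. At 1.5-fold, 1 was higher and 4 lower with collagen, 4 higher and 4 lower with PMB, and 10 lower with collagen than with PMB. With 1 array per coating, 1 to 2 members were higher with PMB and 4 to 5 lower with collagen than with PMB, and the complement medians ran from -0.38 to -0.35 with collagen, 0.16 to 0.17 with PMB and -0.54 to -0.48 for the difference. With the probe of smallest dye difference these medians were -0.40 with collagen and -0.61 for the difference, and with arrays shifted to a median of 0 the PMB median was 0.17. Over all genes, the division by the median gave 173 higher and 281 lower with PMB, against 73 and 166. For collagen minus PMB it gave 605 and 696, against 325 and 435. Without replicate 1, 154 were higher with PMB, and 46 with 2-fold on each array. At 1.5-fold the genes higher and lower numbered 758 and 900 with collagen, against 262 and 400, 512 and 531 with PMB, and 1107 and 1210 for the difference.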
